A study of Mus musculus with 28 samples.

Results

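The genes described here are 43 protein-coding genes of the mouse molar whose expression was lower at E14, the cap stage, than at E13, the bud stage, and at E16, the bell stage. They were chosen by their measured values. A gene was taken when its highest level among the 7 E14 teeth lay below its lowest level among the 7 E13 teeth and 6 of the 7 E16 teeth, and when its median at E13 was at least 1 CPM, which is 1 count in every 1000000 counts of the library. Of the 13122 protein-coding genes that reach this minimum at E13, 43 met the rule, which is 0.328%. The mirrored rule, with E14 above every E13 and E16 tooth used, was met by 152 genes (1.16%). Because the rule used the E14 levels against those of E13 and E16, these levels are given as a description and are not tested.

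RNAseq libraries were made from single first molar tooth germs of C57BL/6JOlaHsd mice, with no treatment named. The labels age the groups E13.5, E14.5, or E16.5, shortened here to E13, E14 and E16, and the 7 teeth of each stage came from 7, 6 and 5 embryos. A second table holds the same E13 and E16 teeth together with 6 lower first molars of wild type C57BL/6JOlaHsd embryos at E15, each from a separate embryo. Some teeth are the left and right pair of 1 animal (embryo 6 of the E14 group, embryos 6 and 8 of the E16 group), so that the teeth of a stage are not all independent.

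The mouse molar starts as an epithelial bud that grows into condensed neural crest mesenchyme. At the cap stage the epithelium folds around the dental papilla and forms the primary enamel knot, a signaling center that secretes ligands of the Wnt, Shh, Bmp, and Fgf families. At the bell stage the cusps take shape and cells that will later make enamel and dentin become distinct. Each tooth germ also holds vessels, nerves, macrophages and adjoining oral tissue, and in bulk RNA fewer cells of a type and less RNA per cell cannot be told apart.

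The E13, E14 and E16 libraries held between 17814073 and 27115729 counts. The left tooth of embryo 3 at E16, which the rule left out, stood apart from the other E16 teeth, with a summed level of 12 endothelium markers of 298 CPM against 508 to 681 CPM and of 11 bone markers of 1913 CPM against 5471 to 7238 CPM. The right tooth of embryo 7 at E16, which the rule used, had the lowest share of counts on protein-coding genes (74.1%) and the highest on long intergenic noncoding RNA genes (17.0%). Protein-coding genes took 84.9% to 91.2% of the counts at E14 and 80.4% to 87.2% at E13. When CPM were computed over the protein-coding counts alone, 67 genes met the rule, among them 34 of the 43, and 112 met its mirror. Both dental epithelium and dental mesenchyme markers were present at every stage. The lowest and highest summed epithelial marker levels were 720 and 999 CPM at E13, 1429 and 1687 CPM at E14 and 2826 and 3487 CPM at E16, and the mesenchymal ones 3123 and 3417 CPM, 2725 and 3172 CPM and 1372 and 2075 CPM. These E16 values are of the 6 teeth used by the rule. The left tooth of embryo 3 at E16 stood below both ranges, at 2053 CPM for the epithelial and 1322 CPM for the mesenchymal markers.

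The drop at E14 was moderate in most of the 43 genes. The E14 median lay below the E13 median by 8.80% to 80.2%, with a median over genes of 31.2%, and below the E16 median by 11.1% to 86.4%, with a median of 35.8%. In 6 genes, Unc5c, Lrrn1, Dok5, Sp9, Ttbk1 and Gdf7, the E14 median was between 51.8% and 80.2% below the lower of the other medians. The gap between the groups was narrow, since the lowest E13 or E16 tooth exceeded the highest E14 tooth by a ratio of 1.00 to 1.45, and this ratio was above 1.2 only in Vwce, Grid1, Unc5c and Lrrn1. Over all 13122 genes, the E14 level relative to the mean of the E13 and E16 medians was centered near 0 on the log2 scale (median -0.01), against -0.58 for the 43 genes. The rule chose genes by these same levels, so this difference is built in and nothing is read from it.

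**Figure D1:**
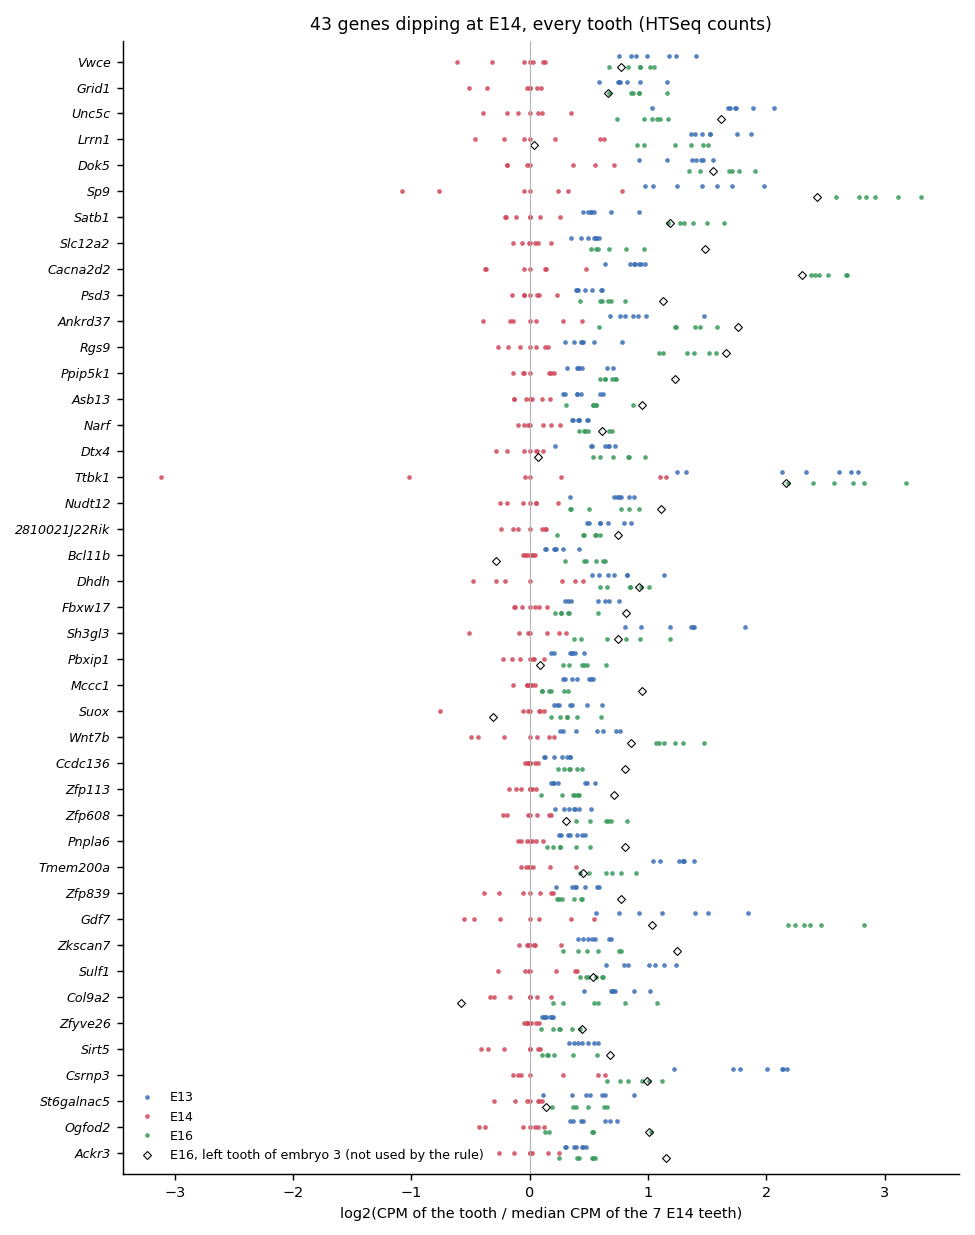
Levels of the 43 genes in every E13, E14 and E16 tooth, as log2 of CPM divided by the median of the 7 E14 teeth, with genes ordered from the widest gap (top) to the narrowest (bottom). Points are single teeth, and open diamonds are the left tooth of embryo 3 at E16, which lies among or above the other E13 and E16 teeth in most genes but at or below the highest E14 tooth in 6, among them Lrrn1, Bcl11b and Col9a2.

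Among the receptors and membrane proteins, the largest drops were in Unc5c and Lrrn1. Unc5c (ENSMUSG00000059921) encodes a netrin receptor that mediates repulsion of growing axons. Its level ranged from 71.9 to 147 CPM at E13 (median 117), from 26.8 to 44.8 CPM at E14 (median 35.2) and from 58.7 to 79.0 CPM in the 6 E16 teeth (median 73.0). The highest E14 tooth lay well below the lowest E13 and E16 teeth used, and embryo 3 of E16 (left tooth) stood at 108 CPM. Lrrn1 (ENSMUSG00000034648), a transmembrane protein with leucine-rich repeats, ranged from 74.5 to 106 CPM at E13 (median 83.3), from 21.1 to 44.8 CPM at E14 (median 29.0) and from 54.4 to 82.2 CPM at E16 (median 71.2). In the left tooth of embryo 3 at E16 Lrrn1 was at 29.7 CPM, inside the E14 range, so that Lrrn1 meets the rule only without that tooth. Ackr3 (ENSMUSG00000044337), a scavenger receptor for the chemokine Cxcl12, had the narrowest gap of all. It ranged from 50.2 to 56.9 CPM at E13, from 34.1 to 48.4 CPM at E14 (median 40.9) and from 48.5 to 59.8 CPM at E16, so that the groups are only just apart.

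The transcription start regions of 31 of the 43 genes were found in the RefSeq promoter table of GRCm38.p6, which holds 300 bases around each start. Shown here are those of Unc5c (chr3:141465314-141465613), Lrrn1 (chr6:107529476-107529775) and Ackr3 (chr1:90203730-90204029), which were also low at E15, and of Sp9 (chr2:73271676-73271975) and Cacna2d2 (chr9:107399630-107399929), which were highest at E16. All lie on the plus strand and are written 5′ to 3′. Of 10 motifs searched on both strands, capitals mark the GC box, spelled GGGCGG. They also mark the CCAAT box, searched by the letters of its name, and the TATA box in the form of TATAAA. No motif searched is contained in another.
Unc5c: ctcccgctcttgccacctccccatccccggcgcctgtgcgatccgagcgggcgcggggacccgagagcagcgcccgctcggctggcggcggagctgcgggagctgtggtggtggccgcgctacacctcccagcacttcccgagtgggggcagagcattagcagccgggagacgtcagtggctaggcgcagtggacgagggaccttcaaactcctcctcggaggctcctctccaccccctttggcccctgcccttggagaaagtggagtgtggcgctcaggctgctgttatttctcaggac
Lrrn1: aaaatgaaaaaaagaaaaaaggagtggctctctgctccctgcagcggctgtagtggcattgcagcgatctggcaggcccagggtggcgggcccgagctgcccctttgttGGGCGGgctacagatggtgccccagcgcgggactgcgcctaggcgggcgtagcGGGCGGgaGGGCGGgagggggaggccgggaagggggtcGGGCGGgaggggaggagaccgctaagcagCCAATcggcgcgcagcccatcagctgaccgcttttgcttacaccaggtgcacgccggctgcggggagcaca
Ackr3: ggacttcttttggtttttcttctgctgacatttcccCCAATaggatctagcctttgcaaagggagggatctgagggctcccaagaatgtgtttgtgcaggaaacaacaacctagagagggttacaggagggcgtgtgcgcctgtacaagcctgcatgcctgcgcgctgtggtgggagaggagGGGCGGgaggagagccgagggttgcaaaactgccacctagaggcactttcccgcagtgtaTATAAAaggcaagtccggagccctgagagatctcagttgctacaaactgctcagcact
Sp9: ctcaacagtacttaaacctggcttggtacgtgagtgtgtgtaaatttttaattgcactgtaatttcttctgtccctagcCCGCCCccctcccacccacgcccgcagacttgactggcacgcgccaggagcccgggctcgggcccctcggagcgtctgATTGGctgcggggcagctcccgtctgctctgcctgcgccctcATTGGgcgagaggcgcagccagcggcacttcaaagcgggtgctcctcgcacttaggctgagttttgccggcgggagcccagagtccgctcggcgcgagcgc
Cacna2d2: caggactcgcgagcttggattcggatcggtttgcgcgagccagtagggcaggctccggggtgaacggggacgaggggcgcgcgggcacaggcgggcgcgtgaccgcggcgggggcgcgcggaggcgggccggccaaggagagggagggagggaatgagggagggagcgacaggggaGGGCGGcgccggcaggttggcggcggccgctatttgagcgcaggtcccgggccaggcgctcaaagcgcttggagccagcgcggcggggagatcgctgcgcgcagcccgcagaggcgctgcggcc
The sequences of Lrrn1 and Sp9 hold CCAAT and GC boxes, that of Ackr3 holds all 3 of these motifs, and none of the 10 searched was found in that of Unc5c. CCAAT was present in 16 of the 31 promoters (51.6%), against 38.8% of 10255 promoters of genes over the minimum. The GC box was present in 71.0% against 66.4%, and the TATA box in 9.68% against 6.57%. An E-box (CACGTG) was found in 2 of 31 promoters and in 1026 of all 10255, an ETS site (CCGGAAGT) in 3.23% against 8.24%, and a YY1 site (AAGATGGC) in 6.45% against 4.56%. A cAMP response element (TGACGTCA), an NRF1 site (GCGCATGC), an AP-1 site (TGACTCA) and a ZBTB33 site (TCTCGCGA) were in none of the 31, against 3.28%, 5.45%, 3.02% and 2.33% of all. The 31 promoters had a median GC content of 58.0% and a median of 16 CpG, against 61.3% and 21 over all. These shares are descriptions of letters in a fixed window and were not tested.

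Grid1 and Vwce had the widest gaps, at low levels. Grid1, a delta subunit of the ionotropic glutamate receptor family, ranged from 6.55 to 9.73 CPM at E13, from 3.06 to 4.65 CPM at E14 and from 6.93 to 9.73 CPM at E16. Vwce, which encodes a protein with von Willebrand factor C and EGF domains, ranged from 6.83 to 10.7 CPM, from 2.64 to 4.43 CPM and from 6.44 to 8.36 CPM. In both genes every E14 tooth was well below every other tooth, and the lowest E13 or E16 tooth exceeded the highest E14 tooth by a ratio of 1.41 and 1.45. Dok5, an adaptor that binds activated receptor tyrosine kinases, had medians of 6.27, 2.38 and 7.70 CPM at E13, E14 and E16, and its E14 teeth reached at most 3.88 CPM. Its lowest E13 tooth stood at 4.51 CPM. In GRCm38, Dok5 lies on chromosome 2 from 170731807 to 170879769, Grid1 on chromosome 14 from 34820108 to 35583379 and Vwce on chromosome 19 from 10634213 to 10666213, all on the plus strand. Tmem200a, a transmembrane protein, had medians of 34.4, 14.1 and 22.4 CPM.

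Of the genes for transport and signal transduction, Cacna2d2, an auxiliary subunit of voltage-gated calcium channels, had the largest difference between the E14 and E16 medians (82.1%) after Sp9 and Ttbk1. It ranged from 8.14 to 10.2 CPM at E13, from 4.03 to 7.27 CPM at E14 and from 27.1 to 33.5 CPM at E16, so that the E16 teeth formed a group far above both others. Slc12a2, the sodium, potassium and chloride cotransporter of secretory epithelia, had medians of 157, 108 and 166 CPM. Rgs9, which speeds up the switching off of G proteins, had medians of 10.9, 8.04 and 20.6 CPM. Psd3, an exchange factor of small GTPases of the Arf family, had medians of 166, 120 and 187 CPM. Ppip5k1, a kinase of inositol pyrophosphate synthesis, had medians of 18.1, 13.6 and 21.6 CPM. Sh3gl3, an endophilin of endocytosis, was highest at E13, with medians of 10.1, 3.93 and 6.53 CPM. Ttbk1, a kinase of tau, was the lowest of the 43 genes per length of exons, with 1 to 19 counts in the E14 teeth and a highest E14 level of 0.776 CPM, against 0.830 CPM in the lowest E13 tooth.

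The secreted and matrix genes were few. Wnt7b, a Wnt ligand, ranged from 14.9 to 21.2 CPM at E13, from 8.84 to 14.4 CPM at E14 and from 26.1 to 34.6 CPM at E16, so that the highest E14 tooth was just under the lowest E13 tooth and all 6 E16 teeth were above both groups. Gdf7, a ligand of the Bmp family, had medians of 6.90, 3.19 and 16.2 CPM, and its highest E14 tooth (4.63 CPM) lay just under the lowest E13 tooth (4.70 CPM). Sulf1, a secreted sulfatase that trims heparan sulfate and thereby alters the binding of growth factors, had medians of 141, 70.2 and 101 CPM. Col9a2, a chain of the cartilage collagen IX, had medians of 14.8, 9.06 and 13.3 CPM. It is the only one of the 43 among 10 cartilage markers, whose summed level was not lowest at E14 (433 to 618 CPM at E13, 557 to 844 CPM at E14 and 540 to 732 CPM in the 6 E16 teeth used). In the left tooth of embryo 3 at E16 this summed level was 431 CPM. Apart from the secreted and matrix genes, Dtx4, a ubiquitin ligase of the Deltex family that acts on Notch, had medians of 21.1, 13.6 and 23.1 CPM.

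The nuclear genes included several transcription factors. Sp9, a zinc finger factor known from the apical ectodermal ridge of the limb bud, was at 7.27 to 14.6 CPM at E13, at 1.74 to 6.35 CPM at E14 and at 22.2 to 36.6 CPM at E16. Its 3 groups did not overlap, and its E14 median was 63.6% below that of E13 and 86.4% below that of E16. Satb1, which organizes chromatin loops, had medians of 31.2, 21.8 and 55.1 CPM, also without overlap between the 3 groups. Bcl11b, a factor required in T cells and in the enamel-forming epithelium, had the highest level of the 43 genes at E14 per length of exons (20.1 CPM per kilobase). Its range was 178 to 217 CPM at E13, 157 to 168 CPM at E14 and 200 to 254 CPM at E16, a small drop with little spread, but in the left tooth of embryo 3 at E16 it stood at 134 CPM, below every E14 tooth. Csrnp3, a nuclear protein rich in cysteine and serine, was highest at E13, with medians of 18.6, 4.63 and 8.61 CPM. Zfp608 had medians of 87.6, 67.6 and 106 CPM, and Zfp113, Zfp839 and Zkscan7, further zinc finger genes, had E14 medians 15.2%, 23.8% and 30.5% below those of E13. Zinc finger genes form a large family, and how reads shared between its copies were counted is not given in the sources used here. Pbxip1, which binds Pbx homeodomain factors, had medians of 31.4, 24.6 and 33.6 CPM.

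The remaining genes are mostly enzymes and other intracellular proteins. Mccc1 of leucine breakdown, Suox, the sulfite oxidase, and Sirt5, a deacylase, act in mitochondria. The E14 medians of Mccc1 and Sirt5 were 24.1% and 26.6% below those of E13, and Suox had medians of 9.08, 7.18 and 8.93 CPM. Nudt12, a nudix hydrolase, Dhdh, a dihydrodiol dehydrogenase, St6galnac5, a sialyltransferase, and Pnpla6, a phospholipase, were 40.8%, 38.8%, 29.6% and 20.9% below. Asb13 and Fbxw17, substrate receptors of ubiquitin ligases, were 24.2% and 33.0% below E13, and Narf, which binds prelamin A, 24.9% below. Ankrd37, a gene known to be induced by hypoxia, had medians of 2.36, 1.29 and 3.23 CPM. Zfyve26, a protein of lysosomal membrane recycling, had the smallest drop, with medians of 78.5, 71.6 and 85.4 CPM and no overlap between E14 (69.0 to 75.5 CPM) and the other stages (lowest 76.3 CPM). Ccdc136, Ogfod2 and 2810021J22Rik were 17.3%, 26.7% and 33.8% below E13. At the edge of the rule, the ratio of the lowest other tooth to the highest E14 tooth was 1.01 for St6galnac5 and Ogfod2 inside it, and 0.998, 0.994 and 0.992 for Tbcd, Zfp128 and Apeh just outside.

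No list of genes examined held more than 3 of the 43 genes. In all, 34 were in none of the lists of pathways, gene families, markers and keystone categories, a share that was not counted over all genes. Of all genes over the minimum, 0.328% met the rule, so that most lists of this size would hold few or none at that share. Nothing is read from the counts per list. Of the keystone genes, those whose loss halts or alters tooth development, none of the 15 progression genes and 1 of the 26 shape genes over the minimum, Bcl11b, met the rule. The Wnt pathway had 1 of 62 genes, Wnt7b, and the TGFB, Notch, FGF, Hh and Eda pathways had 0 of 57, 33, 58, 40 and 19. The other lists with a gene were the glycolysis and hypoxia genes (Ankrd37, 1 of 19), the solute carriers (Slc12a2, 1 of 225) and the channel genes (Cacna2d2, 1 of 75). Col9a2 was 1 of 39 collagens and 1 of 7 cartilage markers over the minimum, and the Zfp genes had 3 of 355. None of the 12 lists of cell type markers had a summed level at E14 that lay below, or above, all used E13 and E16 teeth. The summed red cell markers had medians of 306, 179 and 58.7 CPM at E13, E14 and E16, and the macrophage markers 68.2, 122 and 176 CPM. The 43 genes lay on 18 chromosomes, with at most 4 on any of them. Their exons had a median length of 5962 bases, against 4686.5 for all genes over the minimum and 5273.5 for the 152 genes with E14 above the other stages, and a GC content of 49.9%, against 49.7% and 52.3%. The share of genes that met the rule went from 0.152% (5 genes) among the 3281 shortest genes to 0.488% (16 genes) among the 3281 longest. The share that met its mirror went from 0.792% (26 genes) to 1.28% (42 genes). These counts are small and the differences were not tested. For 24 genes another annotated gene overlaps on either strand, and for 8 on the same strand. The share of all genes with such an overlap was not counted, so nothing is read from these numbers. The strand setting of the counting is not given in the sources used here.

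The left tooth of embryo 3 at E16 was not used by the rule. It lay above the highest E14 tooth for 37 of the 43 genes (86.0%), where the share of all genes over the minimum was 40.3%. Since the rule chose genes with low E14 teeth, a high share is built in and nothing is read from it. The exceptions were Bcl11b, Col9a2, Dtx4, Lrrn1, Pbxip1 and Suox. It was within the range of the other E16 teeth for 10 genes (23.3%, against 26.7% of all genes over the minimum), above it for 19 and below it for 14.

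The rule places E13 and E16 above E14 but does not fix which of these 2 stages is higher. The teeth compared here are, but for the E16 tooth that the rule left out, the same teeth that chose the genes. The p-values of E16 against E13, here and below, are therefore not independent of that choice. How far the choice moved them was not tested. In the edgeR quasi-likelihood fit over all 21 libraries, with Benjamini-Hochberg adjustment over 19101 genes and genes called at an adjusted p below 0.05, 9 of the 43 genes were higher at E16 than at E13, 5 were lower and 29 were not called. Over all genes tested, 21.6% were higher and 19.6% lower, where the 43 genes gave 20.9% and 11.6%. The difference between these shares was not tested. Here and in the fits below, the genes tested were not limited to protein-coding genes or to those over the minimum, unlike the 43. The median log2 fold change was 0.07 for the 43 genes and -0.01 for all genes tested. Among the lists that hold any of the 43 genes, the Wnt pathway had 26 of 66 genes higher and 16 lower at E16 than at E13, and the shape category had 14 of 28 higher and 6 lower. The Zfp genes had 32 of 361 higher and 70 lower, the collagens 21 of 43 higher and 6 lower, and the glycolysis and hypoxia genes 16 of 21 higher and 0 lower. The channel genes had 38 of 98 higher and 24 lower, and the solute carriers 74 of 263 higher and 50 lower.

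Cacna2d2 had the largest difference, with 9.58 ± 0.69 CPM at E13 and 29.4 ± 3.04 CPM at E16 (mean and SD, n = 7 teeth) and a log2 fold change of 1.61 ± 0.12 (SE, edgeR adjusted p = 6.2e-11). Sp9 was higher at E16 by 1.41 ± 0.21 on the log2 scale (edgeR adjusted p = 5.9e-06), Gdf7 by 1.07 ± 0.24 (edgeR adjusted p = 7.0e-04) and Rgs9 by 0.89 ± 0.10 (edgeR adjusted p = 4.5e-08). The ligand Wnt7b rose by 0.64 ± 0.14 (edgeR adjusted p = 4.5e-04) and Satb1 by 0.75 ± 0.10 (edgeR adjusted p = 1.2e-06). Slc12a2, Psd3 and Ppip5k1 rose by only 0.29 ± 0.09, 0.20 ± 0.06 and 0.25 ± 0.09. In the salmon table of the same teeth Slc12a2 (edgeR adjusted p = 0.056) and Ppip5k1 (0.19) were not called.

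The 5 genes lower at E16 than at E13 were Csrnp3, at -1.02 ± 0.14 on the log2 scale (edgeR adjusted p = 3.3e-06), Unc5c, at -0.63 ± 0.12 (1.0e-04), Tmem200a, at -0.62 ± 0.10 (1.2e-05), Sh3gl3, at -0.57 ± 0.15 (0.0045), and Sulf1, at -0.45 ± 0.10 (7.4e-04). These genes were thus highest in the bud, lowest in the cap and intermediate in the bell. Without the left tooth of embryo 3 at E16, 14 of the 43 genes (32.6%) were higher at E16 and 6 (13.95%) lower, beside 25.5% and 23.1% of the 19238 genes tested. The added genes were Bcl11b (0.31 ± 0.05, edgeR adjusted p = 1.5e-05), Zfp608 (0.30 ± 0.06, 4.1e-04), Zfyve26, Dok5 and Dtx4 above, and Mccc1 below.

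**Figure D2:**
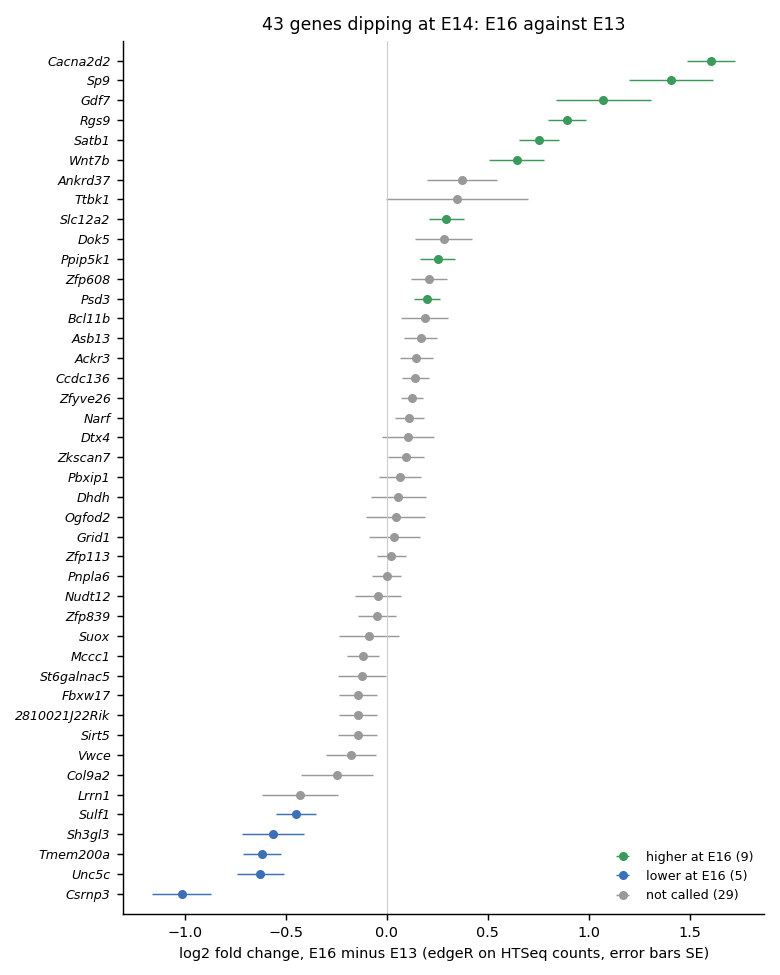
Log2 fold change between E16 and E13 for the 43 genes, sorted by size, from edgeR on the HTSeq counts, with bars of 1 SE. Green marks the 9 genes higher at E16, up to 1.61 for Cacna2d2, blue the 5 lower at E16, down to -1.02 for Csrnp3, and gray the 29 not called.

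The E15 teeth were not used by the rule, so they show where the genes stood between the cap and bell stages. By their labels, E15 against E14.5 and E16.5, they are nearer in age to the E14 teeth than to the E16 teeth. They are in the salmon table only, which lists 41 of the 43 genes, without Vwce and Dhdh. The E13 and E16 teeth that E15 is compared with are the same teeth that the rule chose as high. Counts of genes lower at E15 are therefore raised by the choice of the genes, and their shares beside those of all genes are a description from which nothing is read. The E15 libraries were deposited later than the others, and stage and deposit cannot be told apart. Of the 41 genes, 4 had a level at E15 below every E13 and E16 tooth used, as did 18 of 12356 listed genes over the minimum (0.146%), and 0 had a level above all of them (0.291% of listed genes). The E15 median lay below both the E13 and the E16 median for 26 of 41 genes and for 29.6% of the listed genes.

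The 4 genes were Unc5c, Lrrn1, Dok5 and Ackr3. For Unc5c the 6 E15 teeth ranged from 39.3 to 60.3 CPM (median 46.4), below the lowest E13 tooth (90.5 CPM) and the lowest of the 6 E16 teeth used (76.7 CPM). For Lrrn1 they ranged from 27.9 to 46.8 CPM (median 36.6), against at least 90.2 CPM at E13 and 67.5 CPM at E16. The left tooth of embryo 3 at E16, at 34.5 CPM, was again as low as E15 for this gene. For Dok5 they ranged from 1.63 to 3.10 CPM (median 2.62), against at least 5.50 CPM at E13 and 5.92 CPM at E16. For Ackr3 they ranged from 40.3 to 57.6 CPM (median 54.7), just under the lowest E13 tooth (59.4 CPM) and the lowest E16 tooth (60.0 CPM). The separation was thus wide for Unc5c, Lrrn1 and Dok5 and narrow for Ackr3.

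**Figure D3:**
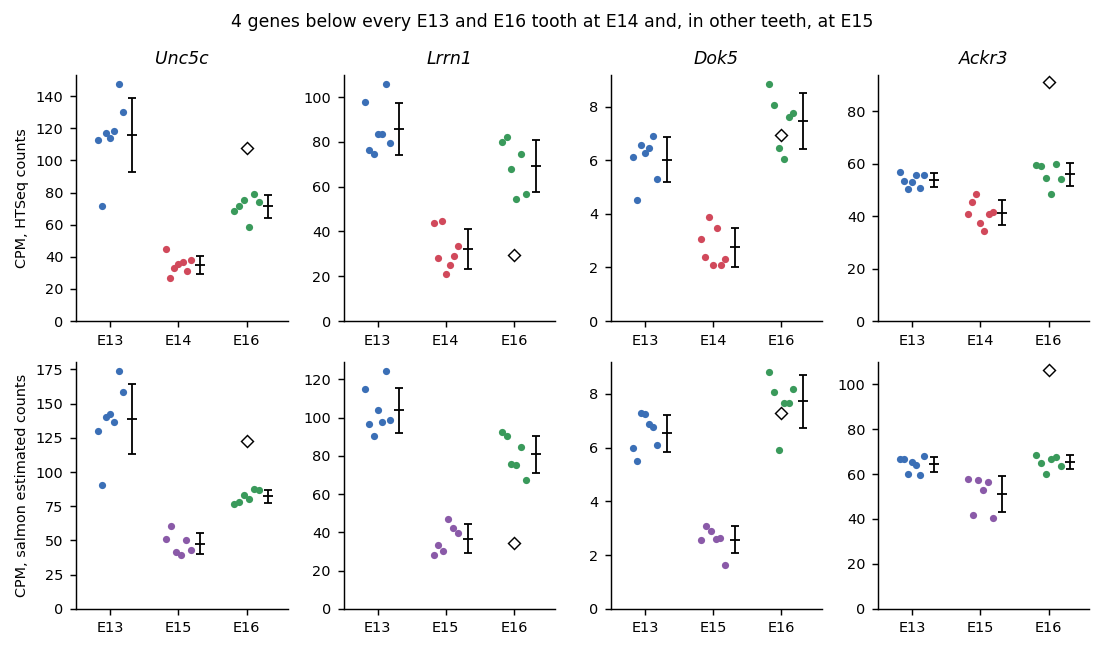
CPM per tooth of Unc5c, Lrrn1, Dok5 and Ackr3 in the HTSeq table (upper panels, E13, E14 and E16) and the salmon table (lower panels, E13, E15 and E16), with the mean and SD of the teeth beside the points. Open diamonds are the left tooth of embryo 3 at E16, which is left out of the mean. The E14 teeth above and the E15 teeth below lie under all E13 and E16 points shown as circles.

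In the edgeR fit over the 20 libraries of the salmon table, with Benjamini-Hochberg adjustment over 13447 genes, 8 of the 41 genes were called lower at E15 than at E13 (8.49% of all genes tested) and 1 was called higher (18.3%). Against E16, 11 were lower at E15 (3.64%) and 0 higher (2.69%). For the count of 0, 1 gene had an unadjusted p under 0.05, and DESeq2 called 0. In all, 26 genes were called in neither comparison, and the median log2 fold change was -0.09 against E13 (all genes 0.04) and -0.16 against E16 (all genes 0.01). The p-values of these comparisons rest on the same E13 and E16 teeth that chose the genes. The 5 genes called lower at E15 than at both other stages were Unc5c, Lrrn1, Dok5, Sp9 and Sulf1.

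Unc5c was lower at E15 than at E13 by a log2 fold change of -1.46 ± 0.13 (edgeR adjusted p = 1.9e-08), and lower than at E16 by one of -0.87 ± 0.13 (1.4e-04). The corresponding values were -1.40 ± 0.19 (edgeR adjusted p = 5.1e-06) and -0.98 ± 0.19 (0.0014) for Lrrn1, and -1.27 ± 0.15 (7.5e-07) and -1.56 ± 0.15 (4.4e-07) for Dok5. Sp9 was only moderately lower than at E13 (-0.72 ± 0.19, edgeR adjusted p = 0.0059) but far lower than at E16 (-2.15 ± 0.19, 1.9e-07). For Sulf1 the difference from E13 was -0.75 ± 0.10 (edgeR adjusted p = 3.9e-06), while that from E16, -0.34 ± 0.10 (0.036), was lost in 7 of 18 alternatives, each of which left out 1 tooth, with adjusted p up to 0.088.

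Of the 9 genes higher at E16 than at E13, 6 were called lower at E15 than at E16 and 0 were called higher at E15 than at E13. The 6 were Sp9, Cacna2d2 (-1.65 ± 0.12, edgeR adjusted p = 6.1e-09), Gdf7 (-1.38 ± 0.26, 0.0014), Satb1 (-0.89 ± 0.10, 5.6e-06), Wnt7b (-0.80 ± 0.16, 0.0028) and Rgs9 (-0.49 ± 0.12, 0.016). Cacna2d2 stood at medians of 11.5, 9.84 and 33.5 CPM at E13, E15 and E16, so that its E15 teeth overlapped with E13 and not with E16. All 5 genes lower at E16 than at E13, Csrnp3, Unc5c, Tmem200a, Sh3gl3 and Sulf1, were also lower at E15 than at E13. Csrnp3 stood at medians of 24.4, 10.9 and 11.6 CPM, with log2 fold changes at E15 of -1.16 ± 0.15 against E13 (edgeR adjusted p = 2.7e-06) and -0.14 ± 0.15 against E16 (0.71). Ackr3 was called against E16 (-0.45 ± 0.12, edgeR adjusted p = 0.017) but not against E13 (-0.25 ± 0.12, 0.12), where it passed without the left tooth of embryo 3 at E16 (0.023). These directions share the E13 and E16 teeth with the comparison of E16 and E13, and are not separate evidence. The matching shares among all genes called between E16 and E13 were not counted, so nothing is read from the counts given here.

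**Figure D4:**
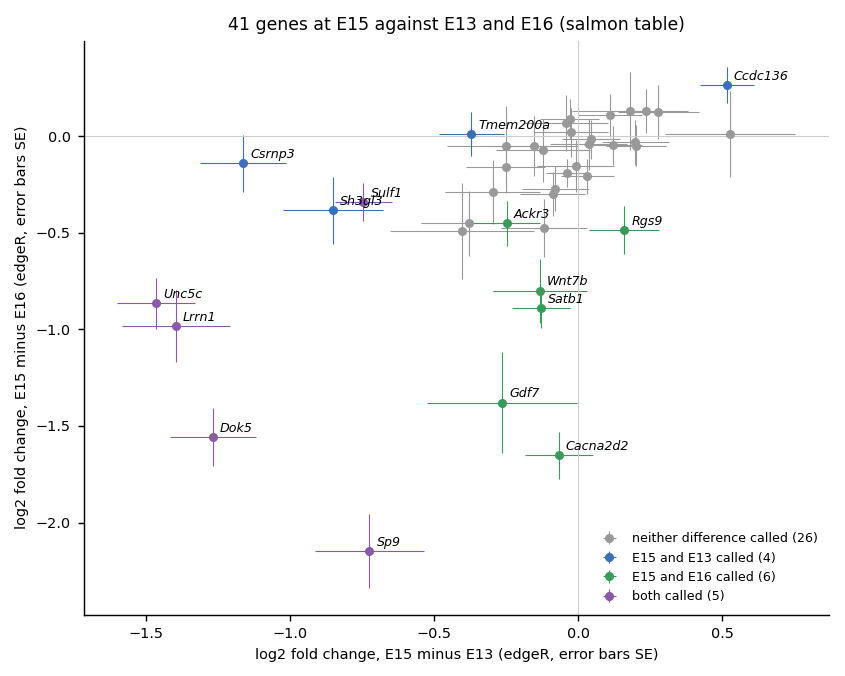
Log2 fold change of E15 against E13 (horizontal) and against E16 (vertical) for the 41 genes in the salmon table, from edgeR, with bars of 1 SE. Purple marks the 5 genes lower at E15 than at both stages, green the 6 called against E16 only, blue the 4 called against E13 only, of which Ccdc136 alone is higher in this fit, and gray the 26 called in neither.

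In the fit with all 20 libraries, Ccdc136 was the only one of the 41 genes called higher at E15 than at E13, by 0.52 ± 0.09 on the log2 scale (edgeR adjusted p = 2.1e-04), with medians of 53.5, 74.5 and 60.4 CPM at E13, E15 and E16. Bcl11b stood at 211, 233 and 266 CPM, and its E15 teeth (222 to 264 CPM) overlapped with those of E13 (204 to 255 CPM). Without the left tooth of embryo 3 at E16, Bcl11b was also called higher at E15 than at E13 (0.20 ± 0.06, edgeR adjusted p = 0.016), and Ccdc136 higher at E15 than at E16 (0.30 ± 0.09, 0.037). Slc12a2 was spread widely at E15, from 119 to 245 CPM, against 173 to 200 CPM at E13, and was not called in either comparison. Sirt5 and Ttbk1 cannot be followed from one table to the other, since their salmon estimates were 7.08 and 4.89 times the HTSeq counts of the same teeth. For the other 39 genes the tables were within 2-fold of each other.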

How the data were processed

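The authors aligned RNAseq reads of single tooth germs to GRCm38 (Ensembl release 90) with STAR and deposited HTSeq read counts per gene, without normalization, for 52636 genes. The authors also deposited salmon estimated counts of 14185 genes for teeth at E13, E15 and E16, with a column for 6 of the 7 E15 teeth labelled. Per the labels, the submitters' processing notes name Salmon 0.99.0 and Trimmomatic 0.39 for the E15 teeth. Stage, embryo and side came from the labels.

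Here, CPM was the count divided by the library total, so that the share of counts on noncoding genes moves it. Each stage was compared with the quasi-likelihood test of edgeR 4.0.16 in R 4.3.3 (TMM, filterByExpr, a factor for stage), on HTSeq counts for E16 and E13 and on rounded estimated counts for E15, with Benjamini-Hochberg adjustment over all genes tested and a threshold of 0.05, and DESeq2 1.42.0 as an alternative. SE is the log2 fold change divided by the square root of F. Both steps were tested on simulated data. Depth was 17814073 to 27115729 HTSeq counts and 14965319 to 24056056 estimated counts, so that genes near the minimum of 1 CPM rest on few reads. Gene positions, lengths and biotypes came from GENCODE vM21, with 147 identifiers absent, and promoters from RefSeq.

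The genes, lists and motifs were chosen with earlier results of these data known. Genes described with full values were those with the widest and narrowest gaps, the highest E14 levels and the largest called differences, and those in lists. Replicates are teeth, so p-values measure the spread between teeth. The alternatives were other library scalings and minimums, teeth of an embryo summed, the left tooth of embryo 3 at E16 included or left out, genes with any count, only the E13 and E16 libraries, side as a factor, DESeq2, the salmon table and each tooth left out. Teeth of an embryo were summed for the rule and the HTSeq fit only. The fits with E15 thus always counted the paired left and right E16 teeth as separate.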

Additional observations from a re-analysis of the deposited data

Results flagged for a closer look

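Among 170 groups of 6 or 7 teeth (a gene at a stage in either table), 16 (9.41%) had a highest or lowest tooth far from the others by Dixon's 95% criterion. Chance gives about 1 in 20 for groups not chosen by their values. The rule limited the highest E14 and the lowest E13 and E16 teeth it used, so nothing is read from the difference. In 8 of the 16 flagged groups the outlying tooth was the left tooth of embryo 3 at E16, always as the highest of 7 teeth. Its level was 108 CPM for Unc5c (next 79.0), 301 CPM for Slc12a2 (next 211), 31.8 CPM for Ppip5k1 (next 22.5) and 73.1 CPM for Mccc1 (next 47.3). It was 75.8 CPM for Ccdc136 (next 59.2), 25.0 CPM for Zfp839, 33.8 CPM for Zkscan7 (next 24.3) and 91.1 CPM for Ackr3 (next 59.8). The rule does not use this tooth.

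At E14 the left tooth of embryo 6 was the lowest for Mccc1 (34.3 CPM, next 37.3) and Suox (4.25 CPM, next 6.89), and the right tooth of embryo 3 was the highest for Zkscan7 (17.1 CPM, next 14.7). At E13 Cacna2d2 was lowest in embryo 7 (8.14 CPM, next 9.42), Nudt12 lowest in embryo 2 (5.39 CPM, next 6.97) and Ankrd37 highest in embryo 3 (3.60 CPM, next 2.55). At E15 Dok5 was lowest in embryo 8 (1.63 CPM, next 2.56) and Bcl11b highest in embryo 1 (264 CPM, next 234).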

How the results depend on the processing

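The number of genes meeting the rule was 67 with CPM over protein-coding counts and 65 with the teeth of an embryo summed, and 44 to 57 on leaving out 1 tooth, with the highest count without the right tooth of embryo 7 at E16. It was 56 with TMM, 50 with DESeq2 size factors and 37 with the left tooth of embryo 3 at E16 included, and 26 of the 43 genes met it in all 28 alternatives. Most of the 28 only loosen the rule, by leaving out a tooth, lowering the minimum or summing teeth, and none of these lost a gene. Genes were lost only with the other scalings (7, 8 and 9), that tooth included (6) and a minimum of 2 CPM (1). Without the left tooth of embryo 3 at E16, 14 genes were higher at E16 than at E13, 2 higher at E15 than at E13 and 1 higher at E15 than at E16. Leaving out 1 tooth in turn gave 9 to 14 genes higher and 5 to 6 lower at E16 than at E13, and 1 to 3 higher and 8 to 9 lower at E15 than at E13. It gave 0 to 1 higher and 10 to 13 lower at E15 than at E16, with 3 genes higher at E15 than at E13 without the right tooth of embryo 4 at E15. Genes below every E13 and E16 tooth at E15 numbered 4 to 6, and 0 were above. Of the single-gene values, taken only for genes called in the main fits, 658 kept their direction and call and 10 kept only their direction, and 0 reversed. The 10 were Ppip5k1 with any count (edgeR adjusted p = 0.054) and in the salmon table, Slc12a2 in the salmon table, and Sulf1 for E15 and E16 without single teeth. Calls gained in an alternative are not among these values. In comparisons with E16, the fit without the left tooth of embryo 3 at E16 was counted 2 times, under 2 settings. The causes were not tested. No paired analysis was possible because replicate numbers of different stages name unrelated embryos. The drop at E14 has no test. Csrnp3, Gdf7, Ogfod2, St6galnac5 and Sulf1, all with narrow gaps, did not meet the rule with any of the other library scalings. Ackr3, with the narrowest gap, met it in every alternative. Lrrn1, with a wide gap, was among the genes lost when the left tooth of embryo 3 at E16 was included.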
